A study of Homo sapiens with 12 samples.

Results

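The 10 genes described here encode subunits of 2 protein complexes of the endosome, 4 of the retromer core (VPS26A, VPS26B, VPS29 and VPS35) and 6 of ESCRT-I (TSG101, VPS28, VPS37A, VPS37B, VPS37C and MVB12B). They were chosen by their complexes: VPS26A, VPS37B and VPS37C had been seen to be higher on the arrays with CREB shRNAs, and the other 7 genes belong to the same complexes. The ESCRT-I subunits UBAP1, VPS37D and MVB12A were not among the 10, and their values are given below. Of the 12503 genes measured in the series, all 10 were among those with a detected probe, one of them, MVB12B, under its older symbol FAM125B. The series compared Jurkat and Molt4, lines of T-cell acute lymphoblastic leukemia (T-ALL), and Nalm6 and RS4;11, lines of B-cell precursor leukemia (BCP-ALL). Each line carried a pLKO1-mCherry lentiviral vector with a scrambled shRNA (Scrambled, the shControl of the study), with shCREB2 or with shCREB3, the latter both directed against the transcription factor CREB, and the cells were stably transduced and expanded as bulk cultures. There were 12 Illumina BeadChip arrays, 1 for each line and vector, so that the line was the replicate (n = 4 lines per vector), no line was measured more than once with a vector, and p-values measure the spread between these lines.

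Retromer binds the membrane of endosomes through a heterotrimer in which VPS35 is the scaffold, VPS29 sits at one of its ends and VPS26A or the related VPS26B at the other. It recycles receptors from the endosome to the Golgi apparatus or to the cell surface. ESCRT-I acts in the opposite route, the sorting of ubiquitinated receptors into vesicles inside the endosome that end in the lysosome, and also in cytokinesis and the budding of viruses. It is a rod of TSG101, which binds ubiquitin, VPS28, which contacts ESCRT-II, 1 of the VPS37 proteins, and 1 of MVB12A, MVB12B or UBAP1.

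All values are log2 signals after quantile normalization between the 12 arrays, and a change is the log2 difference from the Scrambled array of the same line. Signals of different probes are not compared with each other. CREB1 mRNA, the target of both shRNAs, was not lower on average where an shRNA was labelled, though it was on 2 of 8 shRNA arrays. Its change with shCREB2 and shCREB3 was -0.01 and 0.16 in Jurkat, 0.31 and 0.46 in Molt4, 0.30 and 0.27 in Nalm6, and -0.29 and 0.24 in RS4;11, a mean of 0.18 over the lines (standard error 0.07, adjusted p = 0.20 from limma), and a second detected probe gave 0.16. The arrays measure mRNA only, and CREB protein was not analysed here. Each direction below holds for the arrays as labelled. Each array detected between 14320 and 15660 of 47323 probes at a detection p under 0.01. Of the T-cell markers on the array, 10 of 10 were detected in both T-ALL lines and between 1 and 6 in the BCP-ALL lines, and of the B-cell markers 7 or 8 of 9 were detected in the BCP-ALL lines and 3 or 4 in the T-ALL lines. In Nalm6 the shCREB2 array stood apart from the rest, with a highest correlation with any other array of 0.970 against at least 0.987 for the other 11, and members that rest on it are given without it as well. Values for 17 small noncoding RNAs, which depend on the RNA preparation, were also higher on most shRNA arrays. Their mean change was 0.73 and 0.41 in Molt4, 0.64 and 0.34 in Nalm6, 0.21 and 0.22 in Jurkat, and 0.09 and -0.07 in RS4;11 (shCREB2 and shCREB3). The part of this shift in the values below was not tested. In bulk RNA of a line, a higher level in every cell and a larger share of cells with a high level cannot be told apart.

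With both shRNAs, VPS37C, VPS37B and VPS26A were the members furthest above Scrambled, by 1.62-, 1.49- and 1.42-fold on average, and they were higher on 8 of 8 shRNA arrays. VPS37A was also higher on 8 of 8 arrays, by a smaller amount, which made 4 of 10 members, while 4.82% of all genes were higher on 8 of 8 arrays and 3.61% lower (0 members). The choice of the members used this comparison, so the counts and values against Scrambled are a description and no test of them is given. The median change of the 10 members was 0.16 on the log2 scale, against 0.01 for all 12503 genes, and 9 of 10 lay above 0.

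**Figure D1:**
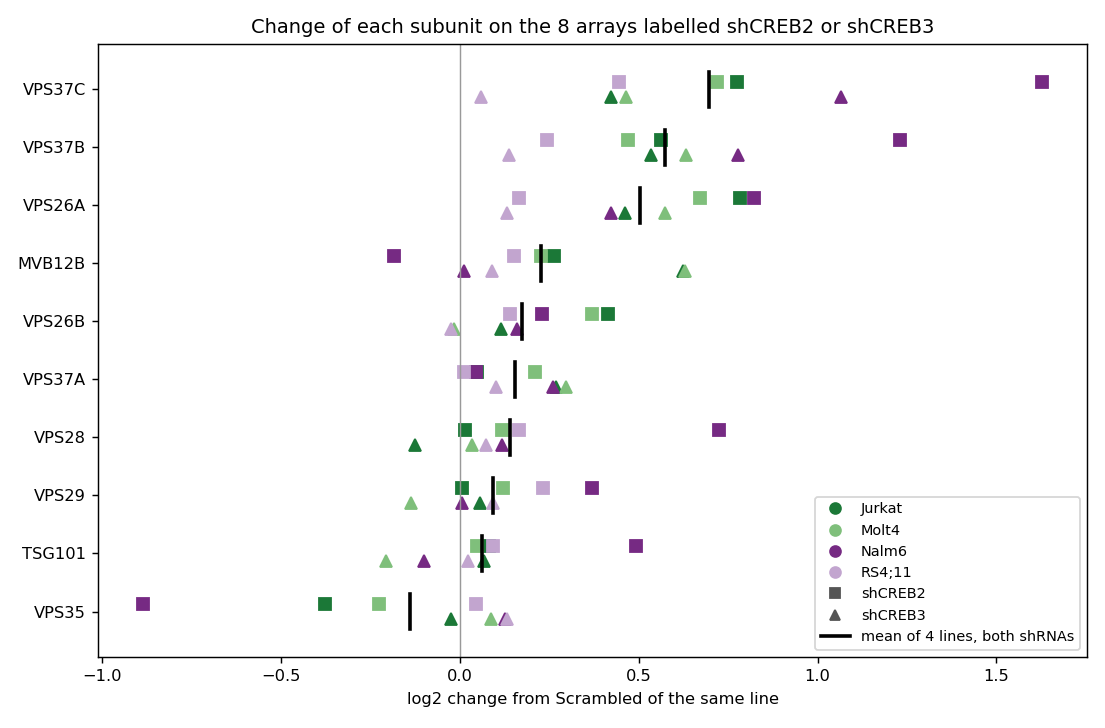
Change of each subunit on the 8 arrays labelled shCREB2 (squares) or shCREB3 (triangles), as the log2 difference from the Scrambled array of the same line (colours), with the mean of the 4 lines over both shRNAs as a black bar. VPS37C, VPS37B and VPS26A lie to the right of 0 on all 8 arrays, with RS4;11 nearest to 0, and VPS35 in Nalm6 with shCREB2 lies furthest to the left, at -0.89.

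VPS26A, the arch-shaped subunit at one end of the retromer, had log2 signals of 9.49, 10.28 and 9.95 in Jurkat with Scrambled, shCREB2 and shCREB3. In the same order they were 9.67, 10.34 and 10.24 in Molt4, 10.27, 11.09 and 10.69 in Nalm6, and 10.48, 10.65 and 10.61 in RS4;11. In every line both shRNA arrays were above Scrambled, and shCREB2 was above shCREB3. With both shRNAs averaged the change was 0.62 in each of Jurkat, Molt4 and Nalm6 and 0.15 in RS4;11, a mean of 0.50 (SD 0.24, n = 4 lines). With this probe the first 3 lines thus had nearly equal changes, and the last stood below them. A second detected probe, annotated with the older symbol VPS26 and matched to another RefSeq transcript of VPS26A, was also higher on 8 of 8 arrays, by 0.22 (SD 0.09). Its signal was low, with log2 values between 7.26 and 7.93.

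VPS37B, 1 of the alternative VPS37 subunits that join TSG101 and VPS28 in the ESCRT-I rod, had log2 signals of 8.47, 9.03 and 9.0 in Jurkat with Scrambled, shCREB2 and shCREB3. The values were 7.98, 8.45 and 8.61 in Molt4, 8.90, 10.13 and 9.67 in Nalm6, and 8.69, 8.94 and 8.83 in RS4;11. All 8 shRNA arrays were above the Scrambled array of their line, with the larger difference in Nalm6, 2.01-fold for both shRNAs averaged, and the smaller in RS4;11, 1.14-fold. The mean change was 0.57 (SD 0.33, n = 4 lines), 0.52 without the Nalm6 array with shCREB2 and 0.43 without Nalm6.

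The promoter of VPS37B is shown because it was the only one of the 3 genes highest with the shRNAs for which RefSeq gave a promoter window here, and because CREB binds the cAMP response element (CRE), the palindrome TGACGTCA, or its core TGACG. Of the 10 members, 6 had a window of 250 bases before to 50 bases after the annotated start (GRCh38.p14). The CRE palindrome, the core and, for comparison, the E-box CACGTG were searched on both strands, and each palindrome also counts as a core on each strand. Counted in bases from the start, VPS37B held 2 palindromes, at -203 and -64, 7 cores, 4 of them inside the palindromes, and 1 E-box. The last core and the E-box overlap. Of all 35116 promoters of the same length, 1.85% held the palindrome at least once and 0.0598% (21 promoters) at least 2 times, 24.6% held the core and 7.26% the E-box. The windows of VPS35 and TSG101, whose levels ran most opposite over the arrays, are shown beside it, since each held 1 core, at -22 and -24. Capitals mark matches.
VPS37B, chr12:122896075-122896374, minus strand: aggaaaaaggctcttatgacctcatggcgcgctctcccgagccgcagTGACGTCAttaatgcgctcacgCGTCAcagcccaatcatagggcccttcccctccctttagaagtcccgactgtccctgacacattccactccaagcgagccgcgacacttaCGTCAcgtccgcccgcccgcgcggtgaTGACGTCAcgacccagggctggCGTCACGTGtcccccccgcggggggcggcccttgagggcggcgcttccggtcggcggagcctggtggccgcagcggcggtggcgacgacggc
VPS35, chr16:46689129-46689428, minus strand: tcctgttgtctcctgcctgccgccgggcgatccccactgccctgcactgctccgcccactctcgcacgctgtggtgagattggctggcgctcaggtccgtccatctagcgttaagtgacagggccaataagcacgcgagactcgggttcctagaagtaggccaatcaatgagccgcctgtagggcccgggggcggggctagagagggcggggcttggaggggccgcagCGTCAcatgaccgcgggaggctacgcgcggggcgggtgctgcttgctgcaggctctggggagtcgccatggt
TSG101, chr11:18526893-18527192, minus strand: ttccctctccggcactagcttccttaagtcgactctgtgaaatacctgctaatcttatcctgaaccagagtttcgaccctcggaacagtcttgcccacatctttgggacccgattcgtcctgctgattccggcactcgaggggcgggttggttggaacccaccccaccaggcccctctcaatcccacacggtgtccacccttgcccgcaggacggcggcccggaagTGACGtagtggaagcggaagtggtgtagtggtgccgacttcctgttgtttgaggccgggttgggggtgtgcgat
The windows of VPS26B, VPS29 and MVB12B held none of the 3 motifs, which says only that these letters are not in them. A match is a description of the sequence, and no binding was measured in this series.

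**Figure D2:**
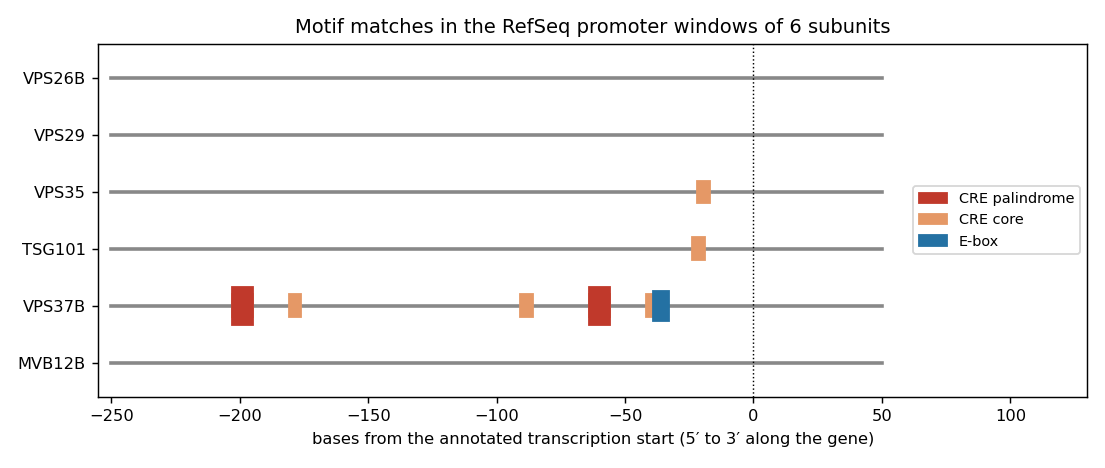
Position of the CRE palindrome (red), the CRE core (orange) and the E-box (blue) in the RefSeq promoter windows of 6 subunits, in bases from the annotated transcription start (dotted line). VPS37B holds 2 palindromes, VPS35 and TSG101 hold 1 core each, and cores inside a palindrome are hidden by it.

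VPS37C, a close relative of VPS37B in the same position of the complex, had log2 signals of 9.31, 10.08 and 9.73 in Jurkat with Scrambled, shCREB2 and shCREB3. They were 8.64, 9.36 and 9.11 in Molt4, 8.46, 10.09 and 9.53 in Nalm6, and 8.96, 9.40 and 9.02 in RS4;11. In each line shCREB2 was highest and Scrambled lowest, and in RS4;11 shCREB3 exceeded Scrambled by only 0.06. Nalm6 had the lowest VPS37C signal of the 4 lines with Scrambled and with shCREB2 stood level with Jurkat, a change of 3.09-fold on that array. The mean change was 0.70 (SD 0.46, n = 4 lines), 0.63 without that array and 0.48 without Nalm6.

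VPS37A, which also acts in the closure of autophagosomes, is the third VPS37 protein measured here. Its difference from Scrambled was 0.05 and 0.27 in Jurkat, 0.21 and 0.30 in Molt4, 0.04 and 0.26 in Nalm6, and 0.01 and 0.10 in RS4;11 with shCREB2 and shCREB3. Here shCREB3 gave the higher value in every line, unlike VPS37C. The mean was 0.15 (SD 0.08, n = 4 lines), but a second detected probe of VPS37A gave -0.02 and was higher on 3 of 8 arrays. The 2 probes thus disagree, and with the mean of both probes, or with the deposited gene means, VPS37A was not higher on 8 of 8 arrays. Under median scaling it was not either, and VPS26B took its place.

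**Figure D3:**
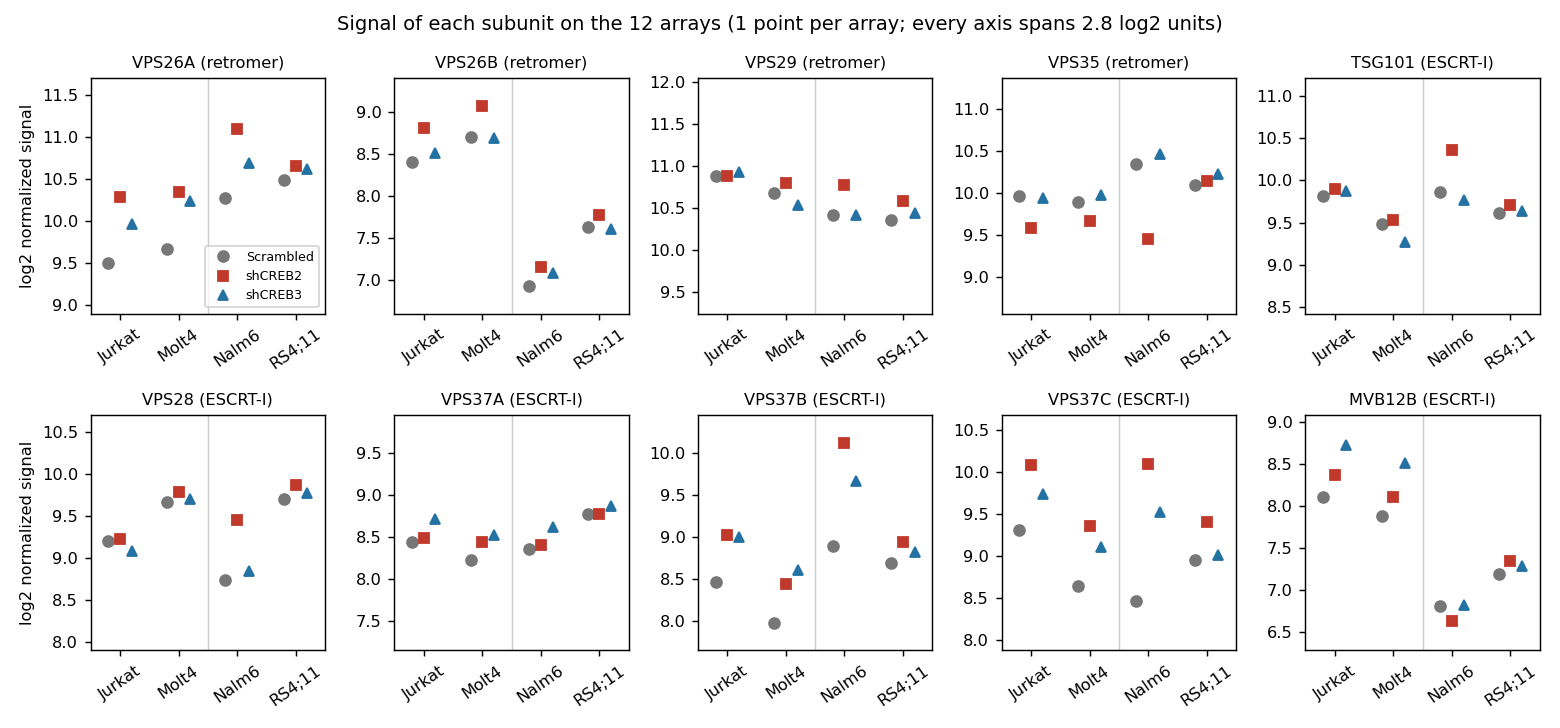
Log2 normalized signal of each subunit on the 12 arrays, 1 point per array, by line and by vector (grey circles Scrambled, red squares shCREB2, blue triangles shCREB3), with the T-ALL lines to the left of the vertical line. VPS26B and MVB12B lie higher on all 6 T-ALL arrays than on all 6 BCP-ALL arrays, and VPS35 lies lower with shCREB2 than with both other vectors in Jurkat, Molt4 and Nalm6.

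Of the other retromer subunits, VPS35 and VPS29 did not share the pattern of VPS26A, and VPS26B shared part of it with smaller changes. VPS35, the scaffold of the heterotrimer, had log2 signals of 9.97, 9.59 and 9.95 in Jurkat, 9.90, 9.67 and 9.98 in Molt4, 10.35, 9.46 and 10.47 in Nalm6, and 10.10, 10.15 and 10.23 in RS4;11 with Scrambled, shCREB2 and shCREB3. On the shCREB2 arrays it was below Scrambled in 3 lines, by most in Nalm6 (0.541-fold), and above it in RS4;11. On the shCREB3 arrays it differed from Scrambled by -0.02 to 0.13. The average over both shRNAs was -0.14 (SD 0.20, n = 4 lines), and -0.01 without the Nalm6 array with shCREB2, so that this array decides the value. VPS29, a small subunit with the fold of a phosphodiesterase, had a mean change of 0.09 (SD 0.10) and was higher on 7 of 8 arrays, with 0.048 without that array. VPS26B, the paralog of VPS26A, had one of 0.17 (SD 0.09) and was higher on 6 of 8 arrays, with 0.29 for shCREB2 and 0.06 for shCREB3. Averaged over both shRNAs, VPS26B was at 0.26 in Jurkat, 0.18 in Molt4, 0.19 in Nalm6 and 0.06 in RS4;11. In Nalm6 its probe was not detected on the Scrambled array, so that the change in this line starts from a background value. Both Nalm6 shRNA arrays are among those counted as higher. As for VPS26A, shCREB2 was above shCREB3 in 4 of 4 lines.

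Of the remaining ESCRT-I subunits, TSG101, which recognizes ubiquitin on cargo, had a mean change of 0.06 (SD 0.11, n = 4 lines) and was higher on 6 of 8 arrays. Its change of 0.49 in Nalm6 with shCREB2 stood apart from the other lines, which reached at most 0.09 with that shRNA, and without this array the average was -0.01. For VPS28 the mean was 0.14 (SD 0.20), with the highest value again in Nalm6 with shCREB2 (0.72), and the average without this array was 0.06. A second detected VPS28 probe gave 0.14 as well. MVB12B, 1 of the alternative MVB12 subunits, was above Scrambled by 0.44 in Jurkat and 0.43 in Molt4, and by 0.12 in RS4;11. Its difference was -0.09 in Nalm6, where its probe was not detected on any of the 3 arrays and the value is only background. UBAP1, VPS37D and MVB12A (listed as FAM125A), the ESCRT-I subunits that were not among the 10, had mean changes of -0.10, 0.02 and 0.04 with both shRNAs averaged (adjusted p = 0.30, 0.91 and 0.64 from limma). UBAP1 fell with shCREB2 by 0.28 (adjusted p = 0.047 from limma), a call lost under median scaling (adjusted p = 0.050), with normexp background correction (adjusted p = 0.069) and without a detection filter (adjusted p = 0.063).

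The choice of the members relied on shRNA arrays being higher than Scrambled. The mean difference between shCREB3 and shCREB2 is another comparison, without the Scrambled arrays, and was tested. It still uses the shRNA arrays that served for the choice. The Scrambled arrays did enter the estimate of the spread behind its p-values. VPS26B was lower with shCREB3 in 4 of 4 lines, and it was the only member of 10 to pass (14.6% of all genes passed in either direction). Its log2 signals with shCREB2 and shCREB3 were 8.81 and 8.51 in Jurkat, 9.07 and 8.68 in Molt4, 7.15 and 7.08 in Nalm6, and 7.77 and 7.61 in RS4;11. The Nalm6 values lay near the undetected Scrambled value of that line, 6.92. The difference was -0.23 (standard error 0.06, 95% confidence interval -0.37 to -0.09, adjusted p = 0.040 from limma, n = 4 lines). The call was close to the threshold: it was lost with normexp background correction (-0.36, adjusted p = 0.058), under median scaling (-0.19, adjusted p = 0.070) and in 10 of 16 fits that left out a line or an array, among them those without Jurkat (adjusted p = 0.19), without Molt4 (adjusted p = 0.22) and without RS4;11 (adjusted p = 0.064). The share of the members that passed was not above that of all genes.

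VPS35 had the opposite sign and was higher with shCREB3 in 4 of 4 lines, by 0.35 in Jurkat, 0.31 in Molt4, 1.01 in Nalm6 and 0.09 in RS4;11. The mean difference of 0.44 (standard error 0.13, 95% confidence interval 0.15 to 0.73) just missed the threshold, with an adjusted p of 0.0502 from limma. Without the Nalm6 array with shCREB2 it was 0.26 and passed (adjusted p = 0.039 from limma), as it did without RS4;11 (0.56, adjusted p = 0.032). Under median scaling, where VPS26B did not pass, VPS35 (0.51, adjusted p = 0.033 from limma) and VPS37A (0.22, adjusted p = 0.025 from limma) did. VPS35 also passed with detection on all 12 arrays (adjusted p = 0.040 from limma). The older-symbol probe of VPS26A was lower with shCREB3 by 0.21 (adjusted p = 0.046 from limma), as VPS26A itself was, by 0.21, without passing (adjusted p = 0.17 from limma, 4 of 4 lines), although it passed without RS4;11 (-0.27, adjusted p = 0.045). VPS37C was lower with shCREB3 by 0.39 in 4 of 4 lines (adjusted p = 0.12 from limma). Its difference was -0.24 without the Nalm6 array with shCREB2 (adjusted p = 0.26) and -0.33 without Nalm6, where it passed (adjusted p = 0.026 from limma). VPS37A was higher by 0.15 in 4 of 4 lines (adjusted p = 0.092 from limma). For VPS37B the interval of the difference reached from -0.40 to 0.19 (mean -0.11, adjusted p = 0.63 from limma), and the mean was 0.052 without the Nalm6 array with shCREB2. The 4 other members, VPS29, TSG101, VPS28 and MVB12B, had differences between -0.23 and 0.22 with adjusted p from 0.11 to 0.19 from limma. Without the Nalm6 array with shCREB2, TSG101 was at -0.12, VPS28 at -0.090 and VPS29 at -0.12, and the value of MVB12B includes Nalm6, where it was not detected.

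**Figure D4:**
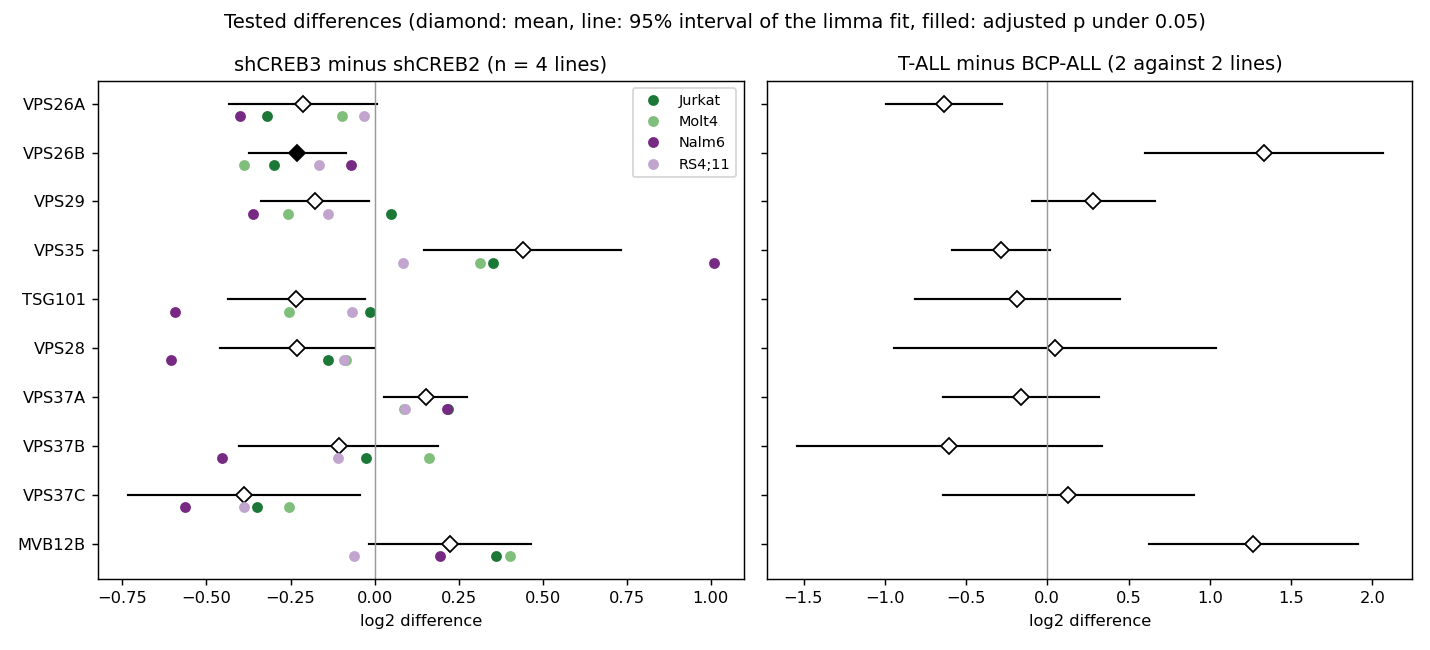
Differences that the choice of the members did not use, shCREB3 minus shCREB2 over 4 lines (left, with the value of each line as a coloured point) and T-ALL minus BCP-ALL lines (right), as log2 differences. Diamonds are the estimates of the limma fit and lines their 95% intervals, and of the 20 diamonds only that of VPS26B on the left is filled (adjusted p = 0.040). MVB12B was not detected in Nalm6.

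Between the lineages, VPS26B and MVB12B were the members whose arrays did not overlap, with the higher signals in the T-ALL lines. VPS26B was highest in Molt4 (8.82 ± 0.22, SD over 3 arrays) and Jurkat (8.57 ± 0.21), whose arrays overlapped, followed by RS4;11 (7.67 ± 0.09) and Nalm6 (7.05 ± 0.12), which did not overlap with each other or with the T-ALL lines. In Nalm6 its probe was detected on 2 of 3 arrays, not on that with Scrambled. The 3 arrays of a line carry different vectors, so that each SD includes the change with the shRNAs. MVB12B had the same order of lineages, with 8.40 ± 0.31 in Jurkat, 8.16 ± 0.32 in Molt4, 7.28 ± 0.08 in RS4;11 and 6.76 ± 0.11 in Nalm6, the last not detected. For these 2 of 10 members the 6 T-ALL arrays did not overlap with the 6 BCP-ALL arrays, and the same held for 19.8% of all genes. The difference was 1.34 for VPS26B (standard error 0.26, adjusted p = 0.16 from limma, 2 against 2 lines) and 1.27 for MVB12B (standard error 0.23, adjusted p = 0.15 from limma), and neither passed. These sizes depend on the background, since MVB12B was detected on only 3 of 6 BCP-ALL arrays and VPS26B on 5 of 6. With normexp they were 2.40 and 2.64, without passing. With the deposited gene means that of VPS26B was 1.33 and that of MVB12B 0.59, also without passing. The deposited mean of MVB12B takes in further probes, detected on 0 and 1 of the 12 arrays.

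VPS26A had the opposite order, with 10.68 ± 0.41 in Nalm6 and 10.58 ± 0.09 in RS4;11 above 10.08 ± 0.36 in Molt4 and 9.91 ± 0.39 in Jurkat. The lines of one lineage overlapped with each other, and those of different lineages next in the order did not. Its difference was -0.64 (standard error 0.13, adjusted p = 0.17 from limma). By the means of the lines, the paralogs VPS26A and VPS26B were ordered in opposite ways over the lineages, without either passing the test. None of the 10 members passed between the lineages (1.04% of all genes did), and the other 7 had differences between -0.60 (VPS37B) and 0.28 (VPS29). VPS37B was highest in Nalm6 (9.57 ± 0.62) and lowest in Molt4 (8.35 ± 0.33), while the 4 lines overlapped for VPS35 and VPS37C from each rank to the next.

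The change with both shRNAs was compared between the lineages as well, and no gene passed (0% of all genes, smallest adjusted p 0.33 from limma, 540 genes at an unadjusted p under 0.05). The smallest adjusted p among the members was 0.97, and no difference is given for MVB12B, which had no measured level in Nalm6. For VPS26A, VPS37B and VPS37C the intervals of this difference were -0.14 to 0.61, -0.61 to 0.51 and -0.93 to 0.52. Their changes were smallest in RS4;11 and, for VPS37B and VPS37C, largest in Nalm6, which are both BCP-ALL lines. For VPS26A this holds only for the probe that stood for it. Its older-symbol probe had the smallest change in Jurkat, 0.09 against 0.20 in RS4;11. In RS4;11 the SD of the change over all genes was 0.13 with shCREB2 and 0.12 with shCREB3, and in Nalm6 it was 0.39 and 0.26, so that the spread of all genes was lowest and highest in the same 2 lines.

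Over the 12 arrays, with each value centred on the mean of its line, VPS37B and VPS37C were most alike (Pearson's r = 0.95), followed by VPS26A with VPS37B and with VPS37C (0.92 each). These 3 genes were picked for being higher with the shRNAs, so a high correlation among them is part of that choice. VPS29 and TSG101, which were not, had an r of 0.92, and VPS37A and MVB12B, the latter not detected in Nalm6, one of 0.79. VPS26B, which was not picked that way either, had an r of 0.765 with VPS26A, and of 0.764 without the Nalm6 array with shCREB2. As VPS26A was picked for being higher with the shRNAs, this value is not free of the choice. VPS35 ran against most members, with -0.92 for TSG101, -0.88 for VPS28 and -0.78 for VPS29. Without the Nalm6 array with shCREB2 these 3 values were -0.81, -0.70 and -0.57, and that of VPS29 with TSG101 was 0.86. The points share 12 arrays and their normalization, and no p is attached to these values.

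**Figure D5:**
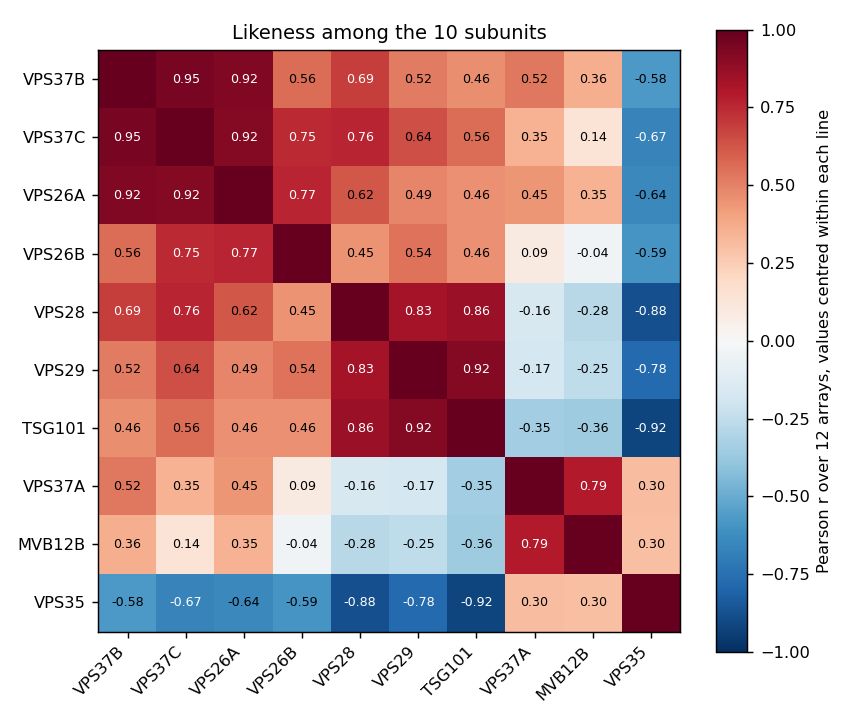
Pearson correlation between the 10 subunits over the 12 arrays after centring each value on its line, from -1 (blue) to 1 (red). VPS37B, VPS37C and VPS26A form the block with values of 0.92 and above at the upper left, and the row of VPS35 is blue except for VPS37A and MVB12B.

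Around the 2 complexes, 77 further genes of endosomal sorting were measured, which had not been used to choose the members. With both shRNAs averaged 2 rose and 2 fell (1.14% of all genes passed in either direction), and their median change was 0.02 against 0.01 for all genes. In ESCRT-III, the filament that closes the vesicles after ESCRT-I has sorted the cargo, CHMP2A rose by 0.32 (standard error 0.05, adjusted p = 0.045 from limma) and VPS24, the older symbol of CHMP3, by 0.43 (standard error 0.07, adjusted p = 0.047 from limma), each higher on 8 of 8 arrays. STAMBP, a deubiquitinase that binds ESCRT-III, was below Scrambled on 8 of 8 arrays and fell by 0.57 (adjusted p = 0.048 from limma, standard error 0.10). In this list of 18 measured genes these were the 3 that passed. The change of CHMP2A was 0.17 when the mean of its detected probes stood for it. Among the 7 sorting nexins that work with retromer, SNX27, which links retromer to receptors with PDZ ligands, fell by 0.56 (standard error 0.08, adjusted p = 0.045 from limma) although it was lower on only 5 of 8 arrays.

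None of the measured genes of ESCRT-0 (3), ESCRT-II (3), the WASH complex and retromer regulators (11), the retriever and CCC complexes (14), the retromer cargo receptors (7) and the HOPS, CORVET and GARP tethers (11) passed for both shRNAs averaged. The furthest from 0 in each were HGS (0.10) and STAM (-0.18) of ESCRT-0, VPS25 (0.05) and SNF8 (-0.03) of ESCRT-II, and CCDC53 (0.29) of the WASH complex with the late endosomal GTPase RAB7A (-0.31). In the remaining lists they were SNX17 (0.24) and COMMD2 (-0.10) of the retriever and CCC group, the mannose 6-phosphate receptor M6PR (0.31) and the Golgi SNARE STX16 (-0.01) among cargo, and VPS52 (0.24) and VPS8 (-0.23) among tethers. The calls for both shRNAs averaged sat close to the threshold of 0.05: no gene of the whole series passed with normexp background correction, with the deposited gene means, with the mean of the detected probes, without any single array of Jurkat or Molt4, or without either shRNA array of Nalm6.

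With shCREB2 alone 6 of these 77 genes rose and 4 fell (3.82% and 4.29% of all genes), and with shCREB3 alone 0 rose and 2 fell (0.448% and 1.18% of all genes). SNX27 differed between the shRNAs. It fell by 1.21 with shCREB2 (standard error 0.15, adjusted p = 0.0057 from limma) and was at 0.10 with shCREB3 (adjusted p = 0.80 from limma), a tested difference of 1.31 (adjusted p = 0.0036 from limma). STAMBP fell by 1.01 with shCREB2 (adjusted p = 0.010 from limma) and was at -0.13 with shCREB3 (adjusted p = 0.74 from limma), a difference of 0.88 (adjusted p = 0.0085 from limma). The following genes were singled out after their values were seen. Besides SNX27, STAMBP and UBAP1, the gene that fell with shCREB2 was PDCD6IP (ALIX), which links cargo to ESCRT-III, by 0.48 (adjusted p = 0.035 from limma), a call lost with the deposited gene means (adjusted p = 0.050) and without a detection filter (adjusted p = 0.056). The genes that rose with it were VPS24, M6PR, the ESCRT-III proteins CHMP1B and CHMP6, and the tether subunits VPS18 and C11ORF2 (VPS51), by 0.26 to 0.55. CHMP1B, CHMP6, VPS18 and C11ORF2 were close to the threshold (adjusted p = 0.039, 0.041, 0.044 and 0.037 from limma). Their calls were not looked at one by one under the other processing settings. M6PR, which carries lysosomal enzymes and is recycled by retromer, rose by 0.50 with shCREB2 (adjusted p = 0.012 from limma) and differed from shCREB3 (adjusted p = 0.020 from limma). SNX5, a membrane-bending partner of retromer, fell by 0.48 with shCREB3 (adjusted p = 0.026 from limma), and so did VTA1, a cofactor of the VPS4 ATPase, by 0.34 (adjusted p = 0.043 from limma). Of the 77 genes, 6 were higher and 12 lower with shCREB3 than with shCREB2, or 23.4% in either direction. Of all 12503 genes, 880 were higher and 945 lower, or 14.6%. Whether these shares differ was not tested. Every call named here for a single shRNA or for their difference was lost without Jurkat or without Molt4, where no gene of the series passed, and those for shCREB3 also without the Scrambled or the shCREB3 array of Jurkat, Molt4 or Nalm6. The VTA1 call was also lost under median scaling (adjusted p = 0.058), with normexp (adjusted p = 0.054) and without a detection filter (adjusted p = 0.051).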

How the data were processed

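RNA of 4 leukemia lines with 3 vectors each was measured on 12 arrays, Illumina HumanHT-12 v4 BeadChips by the methods of the study (the design text of the series names Human v2). The authors deposited probe signals (intensity values exported from GenomeStudio, not normalized), a detection p-value per probe and array, and a table of gene means that they quantile-normalized. The methods name log2, but the deposited gene means are on a natural log scale. Of the deposited signals, 98.1% had lost the decimal mark, which was restored from the gene means and the detection p-values. For 21 genes (41 probes, no member) the place stayed unsure, and these were left out. For 42 gene and array pairs another place matched as well, and the other arrays of the line decided, for 6 of them in favour of that other place.

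Quantile normalization between arrays and a log2 transformation followed, without background subtraction. A probe had to have a detection p under 0.01 on at least 4 arrays, and the brightest probe stood for a symbol, which gave 12503 genes. Fits used limma 3.58.1 in R 4.3.3, with p-values adjusted by Benjamini-Hochberg over all genes and a threshold of 0.05. For both shRNAs averaged and for the comparison of lineages the line means or line differences were fitted, and for single shRNAs and their difference all 12 arrays with the line as a block. The 3 arrays of a line come from the same cell line, and their deviations from the vector means correlated at 0.84 to 0.96. Fits were also run on simulated data with known changes. The outcome is not given here, and nothing above rests on it.

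The members and the gene lists were chosen with earlier results of these data known. Named genes are all members with each detected probe, the other ESCRT-I subunits, CREB1, and per list up to 2 rises and 2 falls past the test for both shRNAs averaged, or else the largest rise and fall. Alternatives were normexp (offset 16), median scaling, the deposited gene means, 2 other detection filters, the mean of probes, no block, the 8 arrays compared alone, the methods' t-test, Scrambled arrays alone for the lineages, and leaving out each line or array. Promoter windows came from RefSeq (GRCh38.p14) and matched 6 of 10 members. Lists of myeloid and erythroid markers were checked too: 1 to 3 of 8 and 0 to 2 of 6 were detected per array. Signals were restored and promoters and figures made in Python 3.11.15 (pandas 2.3.3, matplotlib 3.10.9, numpy 2.4.6). The number of arrays limits the precision.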

Additional observations from a re-analysis of the deposited data

Results flagged for a closer look

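Among the 50 groups of 4 arrays examined for an outlying value (the level of each member with each vector, and its change with each shRNA), 1 was found. The change of TSG101 in Nalm6 with shCREB2, 0.49 on the log2 scale, lay far from those of the other 3 lines, of which the nearest was 0.09, with a gap of 0.901 of the range, above Dixon's critical value at the 95% level. About 1 in 20 such groups is marked by chance alone. The array is the one that stood apart from the others over all genes.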

How the results depend on the processing

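The counts of genes past the test depended strongly on the setting, and some values of the members, given below, moved with it as well. With both shRNAs averaged 142 genes passed, against 257 under median scaling (129 higher, 128 lower, instead of 43 and 99), 285 with detection on all 12 arrays, 80 with no detection filter, 926 at an adjusted p under 0.1, and 0 with normexp, with the deposited gene means and with the mean of probes. The methods' t-test gave 1754 genes unadjusted and 0 after Benjamini-Hochberg adjustment. For shCREB2 (1014 genes) it gave 1772 and 1, and the fit of the 8 arrays alone gave 0. For shCREB3 (204 genes) it gave 1974 and 0, the 8 arrays alone 841, normexp 92, the deposited gene means 126 and no detection filter 116. Median scaling turned the balance of shCREB3 from 56 higher and 148 lower to 176 and 105, and that of shCREB3 against shCREB2 (1825 genes) from 880 and 945 to 1258 and 601. Between the lineages (130 genes) normexp gave 309, detection on all 12 arrays 8 and no detection filter 57. With no replicate block, that is with the lines unpaired, 0 genes passed for both shRNAs averaged, 0 for shCREB2, 0 for shCREB3 and 4 for their difference.

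When 1 line or 1 array was left out, the counts ran from 0 to 437 for both shRNAs averaged, 0 to 1507 for shCREB2, 0 to 841 for shCREB3, 0 to 2215 for their difference, 0 to 281 between the lineages and 0 to 371 for a change that differs by lineage, where 371 came without RS4;11 and 2 without Nalm6. All 6 counts were 0 without Jurkat and without Molt4. Leaving out a line or an array turned the sign of some member differences that had not passed. These were, between the lineages, VPS37C (-0.21 to 0.46), TSG101 (-0.40 to 0.035), VPS28 (-0.34 to 0.43) and VPS37A (-0.33 to 0.013), and between the shRNAs VPS37B (-0.20 to 0.052). The cause was not tested. Of the changes with both shRNAs averaged, that of VPS26B was 0.34 with normexp, that of MVB12B 0.39 with normexp and 0.14 with the deposited gene means, and that of VPS37A 0.094 with the deposited gene means and 0.07 with the mean of probes. Leaving out probes without a symbol before normalization gave 145 genes for both shRNAs averaged (44 higher, 101 lower). This setting, the threshold of 0.1 and the values without the Nalm6 arrays were chosen after seeing the data. The number of arrays, 1 per line and vector, limits the precision, and dim probes such as that of MVB12B in Nalm6 carry no level.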

Other observations

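Since VPS37B held 2 CRE palindromes, the changes of all measured genes with that palindrome were looked at after the data had been seen. Of the 7117 measured genes with a RefSeq promoter window, 246 held the palindrome. Their median change with both shRNAs averaged was -0.02 on the log2 scale, against 0.01 for the 6871 genes without it. Of the 246 genes, 6.1% were higher and 6.91% lower than Scrambled on 8 of 8 shRNA arrays, against 5.4% and 4.15% of the genes without the palindrome. Only 8 measured genes held at least 2 palindromes, of which 1 was higher and 3 were lower on 8 of 8 arrays. VPS37B is the 1 that was higher.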
